A study of Sus scrofa with 5 samples.

Results

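Axon guidance ligands and receptors were described in cells of day 6 porcine blastoids and in porcine embryonic stem cells (pESCs). The members were all genes of the ephrin-A and ephrin-B ligands (EFNA, EFNB), their EPHA and EPHB receptors, the semaphorins (SEMA) and plexins (PLXN), the SLIT ligands and ROBO receptors, and the netrins (NTN) and UNC5 receptors. They were chosen by symbol alone, a family name followed by its number or letter, which left out SLITRK genes and the netrin-G genes. The rule found 66 members of 30029 genes in the count files, and the same 66 among the 29886 symbols of the FPKM table. They comprised 5 ephrin-A ligands, 9 EPHA receptors, 3 ephrin-B ligands, 5 EPHB receptors, 3 SLIT ligands, 4 ROBO receptors, 4 netrins, 4 UNC5 receptors, 7 class 3 semaphorins, 13 membrane-bound semaphorins and 9 plexins.

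Blastoids are blastocyst-like structures that form from stem cells in culture. Here they were grown from pESCs of parthenogenetic blastocysts (activated eggs that were not fertilized), in suspension and finally in iBlastoid medium, which holds among other factors activin A, BMP4, IGF1, LIF, bFGF, the WNT activator CHIR99021 and the tankyrase inhibitor XAV939. Blastoids with a cavity were picked by hand on day 6, dissociated with trypsin and sequenced as 2 droplet libraries, and the labels do not say whether these came from separate cultures. pESCs were kept in 4FIXY medium on mouse fibroblast feeder cells and sequenced as 3 bulk libraries, whose columns are named IVFP25, PA_4P7 and PAP25. The labels name no genetic change and no control group, so the comparisons below are between groups of cells within the blastoid libraries.

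Guidance ligands act on growth cones and on migrating cells by contact or by diffusion. Ephrins are membrane-bound and signal through EPH receptor tyrosine kinases, and class 3 semaphorins are secreted and act through plexins with a neuropilin as co-receptor. SLIT proteins repel through ROBO receptors, and netrins attract through DCC or NEO1 and repel through UNC5 receptors. In embryos the same families also steer neural crest cells, blood vessels and the borders between tissues.

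Cells were barcodes above the UMI threshold of each library, where a UMI marks a counted RNA molecule. Library 1 gave 7369 cells with at least 11223 UMIs and library 2 gave 8175 cells with at least 9807 UMIs, with medians of 29728 and 27588 UMIs, and 9 barcodes of the 15544 cells occur in both libraries. Cells were grouped by gates on 7 genes. A cell passed with at least 3 UMIs of the gate gene and at least 2 times its level in empty droplets (barcodes of 10 to 100 UMIs), and a cell passing several gates went to the first in the order THSD7B, SCRG1, COL3A1, CRABP1, PAX6, POU5F1, GABRP. In libraries 1 and 2 the gates held 61 and 62 THSD7B cells, 48 and 46 SCRG1 cells, 685 and 586 COL3A1 cells, 217 and 344 CRABP1 cells, 576 and 705 PAX6 cells, 878 and 996 POU5F1 cells and 1426 and 1381 GABRP cells. The other 3478 and 4055 cells passed no gate.

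A gate is a cut in a range of levels and not a cell type. Of the GABRP cells, 359 and 365 lay within 1.5 times of the cut, and 402 and 436 further cells lay just below it. Of the THSD7B cells, 21 and 32 lay within 1.5 times of the cut, and 32 and 27 also passed another gate. Of the SCRG1 cells, 38 and 33 also passed another gate, in 33 and 30 cells that of CRABP1. Marker lists were compared with the gates: 7 of 8 sensory neuron markers were highest in THSD7B cells, 7 of 7 neural crest markers in SCRG1 cells, 5 of 7 mesenchyme markers in COL3A1 cells, 6 of 7 neural ectoderm markers in CRABP1 cells, 4 of 6 pluripotency markers in POU5F1 cells and 5 of 7 amnion or trophoblast markers in GABRP cells. Of 6 placode markers, 1 (DLX5) was highest in PAX6 cells and the list summed to 873 and 557 CPM in THSD7B cells against 516 and 526 CPM in PAX6 cells, so every gate is called by its gene. In their own gate and in all other sums the other lists summed to 767 and 698 CPM against 80.0 to 175 CPM (sensory neuron), 754 and 1088 against 122 to 280 (neural crest), 2406 and 2270 against 66.5 to 861 (mesenchyme), 652 and 638 against 27.1 to 276 (neural ectoderm), 524 and 729 against 98.4 to 389 (pluripotency) and 3732 and 3886 against 358 to 1935 (amnion or trophoblast). SOX2 stands in 2 of the lists. POU4F1 is counted among the 7 sensory neuron markers but was at 0.519 and 0.0 CPM in THSD7B cells, and at most 0.519 CPM in any gate. The exception in that list, ISL1, was at 116 and 105 CPM in GABRP cells and 58.1 and 67.1 CPM in THSD7B cells. Markers of other cell types were unevenly spread. Of the endothelial markers PECAM1 and CDH5 were at most 3.33 CPM in any gate, but KDR was at 15.9 and 21.8 CPM in COL3A1 cells and 19.7 and 11.4 CPM in THSD7B cells. Of the hypoblast markers SOX17 was at most 0.939 CPM, but GATA6 was at 162 and 152 CPM and GATA4 at 66.5 and 60.3 CPM in COL3A1 cells. The other hypoblast markers were highest elsewhere, APOE in CRABP1 cells (996 and 1107 CPM), APOA1 in GABRP cells (262 and 309 CPM) and FOXA2 in THSD7B cells (4.15 and 1.49 CPM), and empty droplets held 934 and 1039 CPM of APOE and 307 and 314 CPM of APOA1. Of the trophectoderm markers CDX2 was at most 5.33 CPM, but in GABRP cells ELF5 was at 196 and 196 CPM, SFN at 361 and 382 CPM and KRT8 at 7925 and 7600 CPM, the highest sums of each. TFAP2C, of the same list, was highest in POU5F1 cells at 67.0 and 54.3 CPM, with 36.5 and 33.7 CPM in GABRP cells. Of the surface ectoderm markers TP63 was at 154 and 145 CPM in GABRP cells and at most 58.6 CPM in the other gates, KRT5 was at most 0.497 CPM and KRT17 was not used here. The part of these markers' cells in the calls below was not tested. CPM are UMIs of a gene per 1000000 UMIs of the cells summed, and values are given for library 1 and then library 2.

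UMIs were summed per library and gate, which gave 14 sums, and each gate was compared with the mean of the other 6 gates on the log2 scale by the edgeR quasi-likelihood test with Benjamini-Hochberg adjustment over 17624 genes. A gene was called raised or lowered at an adjusted p under 0.05 and a log2 fold change of at least 1 in size. Of the 66 members, 65 passed the filter on low counts and 61 of these differed among the gates, where 75.6% of all genes tested did. EFNA3, PLXNA1, PLXNB3 and SEMA3G did not pass that test. CRABP1 cells had 17 raised members (6.72% of all genes tested were raised) and 1 lowered member (2.41%). GABRP cells had the opposite balance, with 8 raised (8.70%) and 16 lowered members (7.36%), and so did POU5F1 cells with 5 raised (5.61%) and 15 lowered (5.66%). COL3A1 cells had 14 raised (8.34%) and 9 lowered members (4.15%), THSD7B cells 7 raised (3.74%) and 0 lowered (0.352%), SCRG1 cells 4 raised (2.86%) and 5 lowered (2.37%), and PAX6 cells 3 raised (2.40%) and 3 lowered (3.78%). Some of the small counts moved by over 1.5 times with the cells that were summed. The shares of all genes called in these alternative settings are not given, so a move of the members alone cannot be told from one of all genes. Without doublets 9 members were lowered in SCRG1 cells, and 7 were raised and 5 lowered in PAX6 cells. With a gate at 5 UMIs 12 were lowered in SCRG1 cells, 2 in THSD7B cells and 0 in CRABP1 cells, and 5 were raised in PAX6 cells. Without the cells that passed several gates 15 were lowered in COL3A1 cells and 2 each in THSD7B and CRABP1 cells. In that setting SCRG1 cells were too few to be fitted, so the mean of the other gates left them out and the comparison differed. The median log2 fold change of the 65 members was 0.33 in CRABP1 cells, where the median of all genes was 0.01. It was -0.24 in GABRP cells, where the median of all genes was 0.03.

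**Figure D1:**
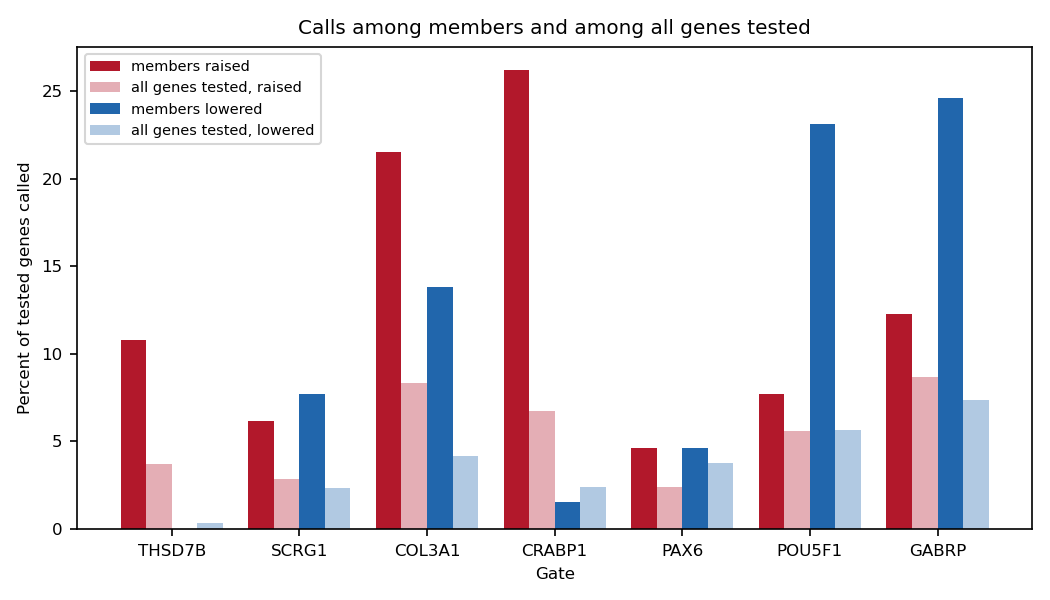
Percent of genes called raised (red) or lowered (blue) in each gate against the mean of the other gates, with the 65 members tested as full bars and all 17624 genes tested as pale bars. In CRABP1 cells 26.2% of members were raised where 6.72% of all genes were, and in GABRP cells 24.6% of members were lowered where 7.36% of all genes were.

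In 46 members the mean level reached 10 CPM in some gate. Of these, 17 were highest in CRABP1 cells, 9 in THSD7B cells, 7 in GABRP cells, 4 each in SCRG1, COL3A1 and PAX6 cells, and 1 in POU5F1 cells. The lowest level was in GABRP cells for 16, in POU5F1 cells for 11 and in SCRG1 cells for 10 of them. The same counts over all genes are not given, so these counts are not read as a trait of the members. A member could also reach 10 CPM only through the gate where it was highest, as ROBO3 did in CRABP1 cells. Droplets without a cell also held RNA of these genes: by the mean of both libraries 15 members were above the level of empty droplets in every gate, and 3 members (EFNA4, PLXNA3 and PLXNB2) were below it in every gate. Within each library 5 members were above it in all gates, and EFNA4 alone was below it in all gates. These counts against empty droplets are not given over all genes either, so they are not read as a trait of the members.

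**Figure D2:**
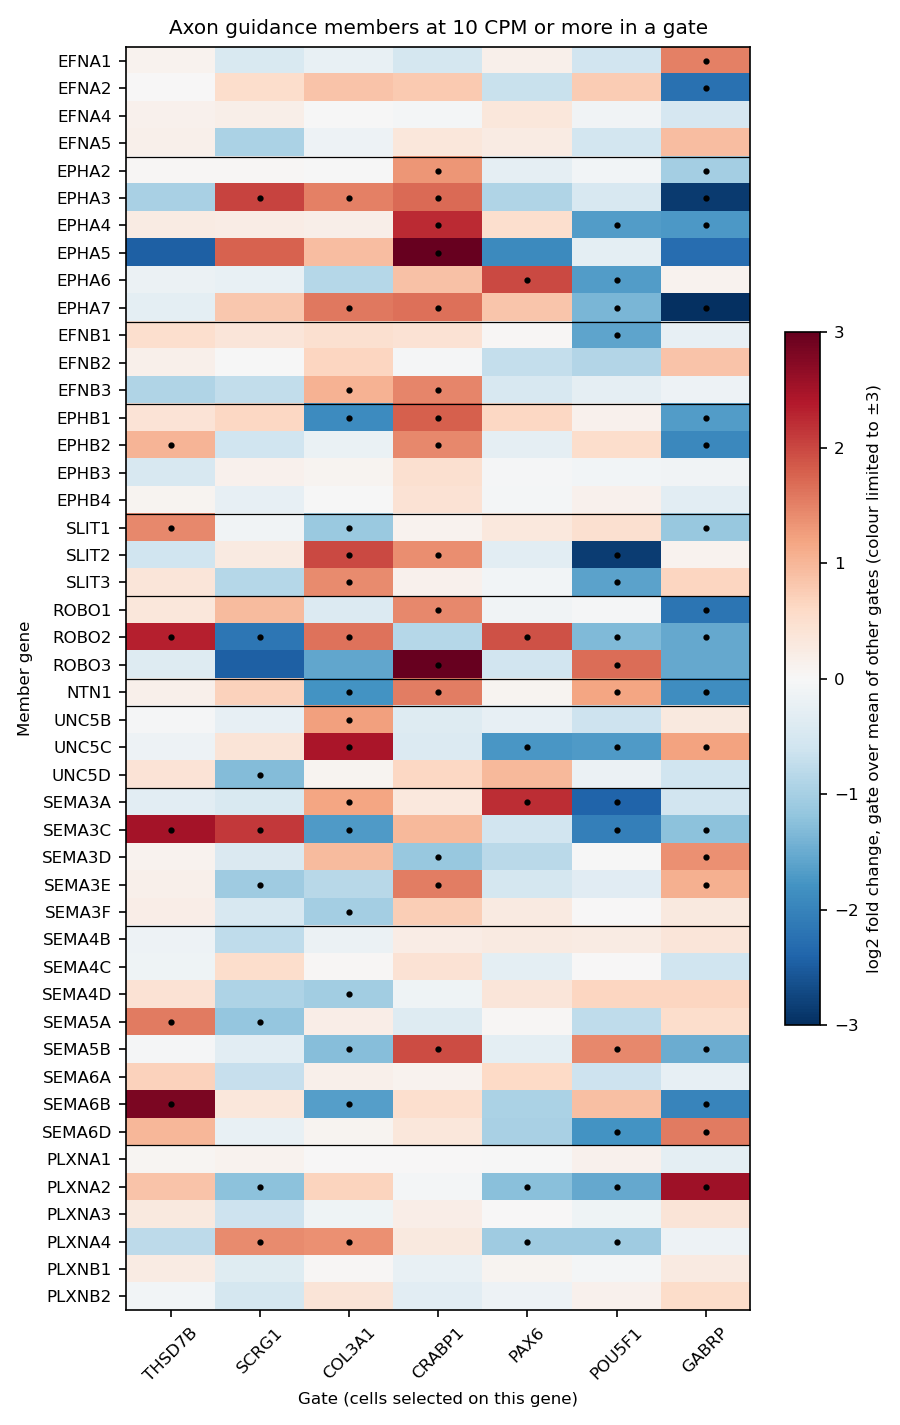
Fitted log2 fold change of each gate (columns) over the mean of the other gates for the 46 members at 10 CPM or more in a gate (rows, by family with black lines between families). Red is higher, blue is lower, the colour is limited to 3 in size and a dot marks a call. CRABP1 cells hold dots for EPHA receptors in red, and GABRP cells hold dots for the same family in blue.

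The promoter windows are shown because their genes had the largest log2 fold change among the named members of CRABP1, COL3A1 and GABRP cells, and no binding data bear on them. Each is the 250 bases before the annotated start of the gene in the RefSeq annotation of susScr11, printed 5′ to 3′ on the strand of the gene. Capitals mark matches to an E-box (CANNTG) or a GATA motif (GATAA) on either strand.
ROBO3, chr9:52064793-52065042, plus strand: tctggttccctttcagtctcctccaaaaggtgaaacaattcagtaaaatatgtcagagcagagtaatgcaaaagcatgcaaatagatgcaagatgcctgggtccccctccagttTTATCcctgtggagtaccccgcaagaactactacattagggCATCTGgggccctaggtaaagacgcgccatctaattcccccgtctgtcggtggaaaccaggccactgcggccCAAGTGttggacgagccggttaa
UNC5C, chr8:124149114-124149363, plus strand: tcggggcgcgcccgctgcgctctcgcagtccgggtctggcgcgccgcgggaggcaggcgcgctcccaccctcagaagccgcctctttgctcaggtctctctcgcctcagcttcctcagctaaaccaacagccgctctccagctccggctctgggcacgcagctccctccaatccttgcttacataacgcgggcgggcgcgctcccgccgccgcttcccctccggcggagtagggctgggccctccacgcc
PLXNA2, chr9:134584510-134584759, plus strand: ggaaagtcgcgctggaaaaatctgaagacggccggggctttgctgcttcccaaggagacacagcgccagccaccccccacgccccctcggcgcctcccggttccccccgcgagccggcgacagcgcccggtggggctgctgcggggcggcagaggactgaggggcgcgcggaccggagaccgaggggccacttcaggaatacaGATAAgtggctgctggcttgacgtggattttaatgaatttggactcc
The ROBO3 window held 2 E-box matches and 1 GATA match, the PLXNA2 window 1 GATA match, and the UNC5C window neither. The G and C content was 50.8% for ROBO3, 71.6% for UNC5C and 66.4% for PLXNA2. Over all 66 members, 37 windows (56.1%) held an E-box match where 62.3% of 20664 windows of protein-coding genes did. A GATA match was in 14 windows (21.2%) where 20.0% of all windows held it, and a TFAP2 match (GCCNNNGGC) was in 13 (19.7%) where 21.5% did. These shares of the members were near those of all protein-coding genes.

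Among the SLIT ligands, SLIT2 and SLIT3 were highest in COL3A1 cells and SLIT1 in THSD7B cells. SLIT2 was at 487 and 398 CPM in COL3A1 cells and at 339 and 371 CPM in CRABP1 cells, against 29.2 and 24.8 CPM in POU5F1 cells. It was raised in COL3A1 cells by a log2 fold change of 1.97 ± 0.18 (SE, adjusted p = 5.3e-07), raised in CRABP1 cells by 1.39 ± 0.19 (adjusted p = 7e-05) and lowered in POU5F1 cells at -2.85 ± 0.26 (adjusted p = 7.76e-07). The libraries of SCRG1 cells were far apart for SLIT2, at 81.2 and 287 CPM, so its place in the order there is not set. SLIT3 was at 153 and 147 CPM in COL3A1 cells and between 25.6 and 91.8 CPM in all sums of other gates, with no overlap. SLIT1 showed the reverse of SLIT2 between these gates: it was at 36.3 and 34.3 CPM in THSD7B cells and at 6.89 and 6.85 CPM in COL3A1 cells. It was raised in THSD7B cells (log2 fold change 1.45 ± 0.12, adjusted p = 1.07e-06) and lowered in COL3A1 (-1.12) and GABRP cells (-1.14).

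ROBO1 and ROBO2, the main SLIT receptors, lie next to each other on chromosome 13 (175348223 to 176479482 and 177365712 to 179040027) and had different patterns. ROBO1 was at 672 and 642 CPM in CRABP1 cells, above all sums of the other gates, and at 59.6 and 66.2 CPM in GABRP cells, below all others. Its log2 fold change was 1.43 ± 0.09 in CRABP1 cells (adjusted p = 2.75e-08) and -2.18 ± 0.12 in GABRP cells (adjusted p = 1.89e-09). ROBO2 was at 745 and 472 CPM in THSD7B cells, 467 and 444 CPM in PAX6 cells and 391 and 322 CPM in COL3A1 cells. In the other gates it was between 30.7 CPM and 99.2 CPM, so that the gates fell into a high and a low set without overlap. It was raised in THSD7B (2.33 ± 0.12), PAX6 (1.92 ± 0.12) and COL3A1 cells (1.62 ± 0.12), and lowered in SCRG1 (-2.16 ± 0.22), GABRP (-1.54 ± 0.15) and POU5F1 cells (-1.31 ± 0.15), with adjusted p between 5.65e-09 and 8.82e-06. Its libraries were far apart in THSD7B cells, and the lower of them was close to the PAX6 cells.

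ROBO3, a divergent receptor known for the crossing of commissural axons at the midline, was highest in CRABP1 cells in both libraries. It lies on chromosome 9 from 52065043 to 52081764, tail to tail with ROBO4. Its level was 19.7 and 25.7 CPM in CRABP1 cells, 3.11 and 3.53 CPM in POU5F1 cells and at most 1.99 CPM in any sum of the other gates, and empty droplets held 2.44 and 3.41 CPM. Its log2 fold change in CRABP1 cells was 4.82 ± 0.26 (adjusted p = 2.94e-09). No THSD7B cell of library 1 and no SCRG1 cell of library 2 held a ROBO3 UMI, so the size of this fold is not well set. ROBO3 was also called raised in POU5F1 cells (1.68 ± 0.32), where its mean of 3.32 CPM was below the plain mean of the other gates of 4.27 CPM, because the test averages the gates on the log2 scale and the CRABP1 cells weigh less there. When every cell was thinned to 9800 UMIs, 18.0% and 20.6% of CRABP1 cells held a ROBO3 UMI, 26.7% and 32.8% without thinning. In GABRP cells the thinned share was 0.210% and 0.145%, and 1.05% and 0.869% without thinning. The median depth was 24643 and 22461 UMIs in CRABP1 cells and 27510 and 25544 UMIs in GABRP cells. ROBO4, the endothelial member, stayed at or below 2.29 CPM in all gates, and at this low level it was called raised in GABRP cells.

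**Figure D3:**
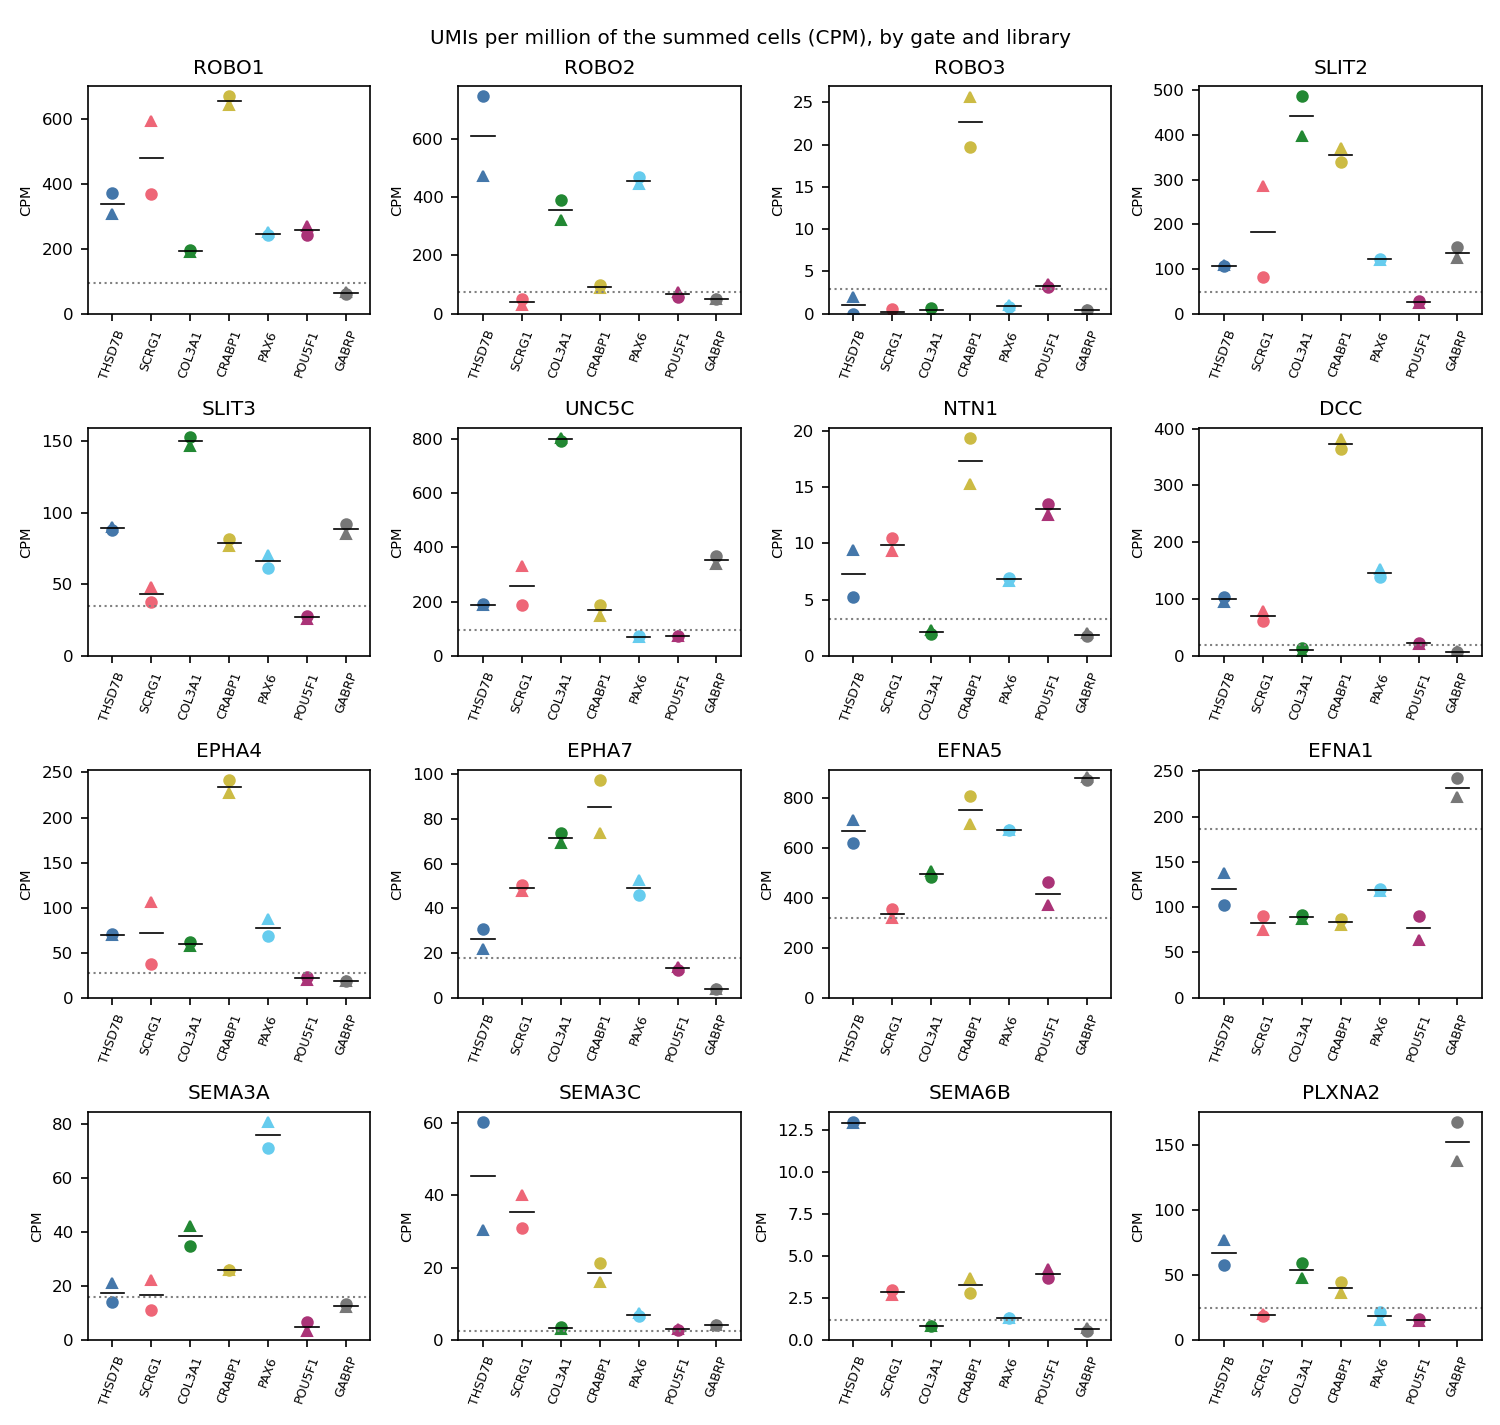
CPM of 15 members and of the netrin receptor DCC in each gate, with circles for library 1, triangles for library 2, a bar for their mean and a dotted line for the mean level of empty droplets. Each panel has its own axis from 0. ROBO3, DCC and EPHA4 stand out in CRABP1 cells, UNC5C in COL3A1 cells, SEMA3A in PAX6 cells, SEMA6B in THSD7B cells and PLXNA2 in GABRP cells.

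The netrin NTN1 was at 19.4 and 15.3 CPM in CRABP1 cells and 13.5 and 12.5 CPM in POU5F1 cells, and it was raised in both (log2 fold change 1.54 ± 0.14, adjusted p = 7.92e-07, and 1.18 ± 0.12, adjusted p = 1.42e-06). In COL3A1 cells it was at 1.93 and 2.28 CPM and in GABRP cells at 1.72 and 1.99 CPM, and it was lowered in both (-1.78 and -1.87). Both gates were below the 3.05 and 3.41 CPM of NTN1 in empty droplets, which rest on few UMIs. The NTN1 receptor DCC, which is not a member, followed the high end of this order in CRABP1 cells, with 364 and 382 CPM there, a log2 fold change of 3.33 ± 0.12 and an adjusted p of 3.59e-11. DCC was also raised in PAX6 cells (138 and 153 CPM, 1.84 ± 0.12) and THSD7B cells (103 and 95.4 CPM, 1.13 ± 0.19), and it was lowered in COL3A1 (-2.50), GABRP (-2.99) and POU5F1 cells (-1.37). POU5F1 cells thus had NTN1 raised and DCC lowered. NEO1, the other netrin receptor, varied less, between 68.2 and 180 CPM over all sums, and was not called in any gate. The low netrins were NTN3, at 4.41 and 4.64 CPM in COL3A1 cells and at most 1.49 CPM elsewhere (log2 fold change 3.85 ± 0.29, adjusted p = 6.12e-08), and NTN4 and NTN5, which stayed at or below 4.22 and 2.08 CPM. At these levels NTN4 was called raised in CRABP1 cells (1.17), NTN5 raised in THSD7B cells (2.55, adjusted p = 0.0291), where 2.08 and 1.49 CPM are a few UMIs, and NTN3 and NTN5 lowered in POU5F1 cells (-1.64 and -1.62).

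Among the UNC5 receptors, which turn netrin attraction into repulsion, UNC5B and UNC5C were raised in COL3A1 cells, where DCC was lowered. UNC5C lies on chromosome 8 from 124149364 to 124533755. It was at 793 and 804 CPM in COL3A1 cells, over 2 times any other sum, then at 367 and 340 CPM in GABRP cells, and at 72.0 and 68.7 CPM in PAX6 cells and 71.2 and 73.5 CPM in POU5F1 cells. It was raised in COL3A1 cells (log2 fold change 2.45 ± 0.09, adjusted p = 2.72e-11) and GABRP cells (1.20 ± 0.10), and lowered in PAX6 (-1.76 ± 0.13) and POU5F1 cells (-1.70 ± 0.13), both of which were below empty droplets at 106 and 84.5 CPM. Thinned to 9800 UMIs, 94.6% and 95.6% of COL3A1 cells held a UNC5C UMI, against 32.1% and 32.1% of PAX6 cells. UNC5B was likewise raised in COL3A1 cells (45.2 and 50.5 CPM, 1.23 ± 0.06), and its other sums lay between 16.2 and 27.5 CPM. UNC5D had another pattern: it was at 193 and 232 CPM in PAX6 cells and 200 and 170 CPM in CRABP1 cells, whose ranges overlapped, and it was lowered in SCRG1 cells, at 62.3 CPM or less (-1.29 ± 0.14, adjusted p = 1.93e-05). UNC5A was at most 3.60 CPM, a level it reached in CRABP1 cells. The 4 UNC5 receptors had further calls not given above: 1 raised in CRABP1 cells (6.72% of all genes), 1 raised in POU5F1 cells (5.61%) and 1 lowered in GABRP cells (7.36%).

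Of the 8 EPHA receptors tested, 5 were raised in CRABP1 cells (6.72% of all genes) and 4 were lowered in GABRP cells (7.36%). EPHA4, a receptor for ephrins of both classes, was at 242 and 227 CPM in CRABP1 cells and between 57.9 and 106 CPM in THSD7B, COL3A1 and PAX6 cells and library 2 of SCRG1 cells, with 36.9 CPM in library 1 of SCRG1 cells. In POU5F1 and GABRP cells it was between 18.1 and 22.9 CPM, below empty droplets at 26.8 and 27.3 CPM. Its log2 fold change in CRABP1 cells was 2.25 ± 0.13 (adjusted p = 8.47e-09). EPHA5 was at 11.9 and 16.4 CPM in CRABP1 cells and at most 4.98 CPM in any other sum (log2 fold change 4.26 ± 0.37, adjusted p = 6.43e-07). No THSD7B cell of library 1 held an EPHA5 UMI, so the size of this fold is not well set. EPHA7 was at 97.3 and 73.6 CPM in CRABP1 cells and 74.0 and 69.5 CPM in COL3A1 cells, which overlapped, and at 4.03 and 3.80 CPM in GABRP cells. It was raised in CRABP1 (1.65 ± 0.09) and COL3A1 cells (1.58 ± 0.09) and lowered in GABRP (-3.19 ± 0.12, adjusted p = 7.09e-11) and POU5F1 cells (-1.38 ± 0.10).

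EPHA3 was called raised in SCRG1 cells (2.02 ± 0.55, adjusted p = 0.022), but its level there was 4.48 CPM in library 1 and 40.7 CPM in library 2, so that library 2 sets this value. In COL3A1 cells it was at 10.8 and 17.3 CPM and in CRABP1 cells at 15.5 and 19.3 CPM, and it was raised in both (1.51 ± 0.33 and 1.69 ± 0.36). GABRP cells had 1.15 and 0.751 CPM of EPHA3 (log2 fold change -2.87 ± 0.48, adjusted p = 0.000136). EPHA6 was highest in PAX6 cells: it was at 73.8 and 64.8 CPM in PAX6 cells, then at 38.8 and 37.8 CPM in CRABP1 cells, and lowest in POU5F1 cells at 9.12 and 6.72 CPM. The log2 fold change of EPHA6 was 1.97 ± 0.11 in PAX6 cells (adjusted p = 2.42e-08) and -1.68 ± 0.15 in POU5F1 cells (adjusted p = 6.34e-07). EPHA2 was raised in CRABP1 cells at 13.1 and 12.3 CPM (1.32). EPHA1 was between 3.70 and 9.76 CPM in all sums and had no call. EPHA10 reached 1.31 CPM at most, in POU5F1 cells, where it was called raised (3.54). SCRG1 cells held 0.0 and 0.0 CPM of EPHA10, so the size of that fold is not well set. EPHA8 was at or below 0.110 CPM, too low to be tested.

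Of the 5 ephrin-A ligands tested, 1 was raised (8.70% of all genes) and 1 lowered (7.36%) in GABRP cells, and none was called in another gate. EFNA1 was at 243 and 221 CPM in GABRP cells and between 63.8 and 138 CPM in the other sums (log2 fold change 1.52 ± 0.10, adjusted p = 5.64e-09). Empty droplets held 207 and 165 CPM of EFNA1, above all gates but GABRP. EFNA2 was the reverse, at 2.59 and 2.39 CPM in GABRP cells and between 7.11 and 19.2 CPM in the other gates (-2.24 ± 0.12, adjusted p = 1.61e-09). EFNA5 was at 872 and 882 CPM in GABRP cells, 807 and 696 CPM in CRABP1 cells, 670 and 669 CPM in PAX6 cells and 620 and 712 CPM in THSD7B cells, and THSD7B cells overlapped both CRABP1 and PAX6 cells. It was lowest in SCRG1 cells (353 and 318 CPM) and was not called in any gate against the others. GABRP cells thus had EFNA1 raised together with EPHA2, EPHA3, EPHA4 and EPHA7 lowered.

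Among the ephrin-B ligands and EPHB receptors, EPHB1, EPHB2 and EFNB3 were raised in CRABP1 cells and EPHB1 and EPHB2 were lowered in GABRP cells. EPHB1 was at 23.9 and 22.6 CPM in CRABP1 cells, 2.48 and 2.08 CPM in COL3A1 cells and 2.89 and 1.99 CPM in GABRP cells, with log2 fold changes of 1.78 ± 0.18, -1.89 ± 0.24 and -1.66 ± 0.20 and adjusted p of 2.23e-06, 1.39e-05 and 5.1e-06. Its libraries were apart in THSD7B cells (14.5 and 5.96 CPM) and SCRG1 cells (7.97 and 15.3 CPM), and PAX6 cells at 11.8 and 10.1 CPM lay between them. EPHB2 was at 47.1 and 44.9 CPM in CRABP1 cells and 42.6 and 27.3 CPM in THSD7B cells, both raised (1.45 and 1.01), and at 5.39 and 4.67 CPM in GABRP cells (-1.93 ± 0.13, adjusted p = 9.7e-09). EPHB3 and EPHB4 varied little, at 15.9 to 30.4 CPM and 16.6 to 33.6 CPM over all sums, and had no call, and EPHB6 was raised in COL3A1 cells at 6.69 and 5.98 CPM (1.64). EFNB3 was at 22.8 and 19.6 CPM in CRABP1 cells and 15.0 and 13.7 CPM in COL3A1 cells, both raised (1.47 and 1.04). EFNB1 was at 25.6 and 19.8 CPM in POU5F1 cells, below all sums of the other gates, which lay between 43.1 and 91.9 CPM (-1.57 ± 0.09, adjusted p = 8.9e-09). EFNB2, a ligand of EPHB4 in vessels, was between 14.5 and 45.4 CPM and was not called.

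The following class 3 semaphorin genes lie close together on chromosome 9 and each was highest in a different gate. They stand in the order SEMA3D (95280637 to 95486109), SEMA3A (95934937 to 96387950), SEMA3E (96682178 to 96941074) and SEMA3C (99114649 to 99432683). SEMA3A, the classic collapsing factor for growth cones, was at 71.1 and 80.7 CPM in PAX6 cells, above all other sums, and at 6.56 and 3.20 CPM in POU5F1 cells. Its log2 fold change was 2.23 ± 0.14 in PAX6 cells (adjusted p = 4.09e-08), 1.19 ± 0.15 in COL3A1 cells (34.8 and 42.1 CPM) and -2.39 ± 0.20 in POU5F1 cells (adjusted p = 3.03e-07). Thinned to 9800 UMIs, 31.8% and 39.0% of PAX6 cells held a SEMA3A UMI, against 5.47% and 2.11% of POU5F1 cells. SEMA3C, known for guiding neural crest cells to the heart, was at 60.2 and 30.3 CPM in THSD7B cells and at 30.9 and 40.0 CPM in SCRG1 cells, which overlapped. CRABP1 cells followed with 21.3 and 15.9 CPM, and the other gates lay between 2.78 and 7.32 CPM. SEMA3C was raised in THSD7B (2.49 ± 0.20, adjusted p = 4.21e-07) and SCRG1 cells (2.11 ± 0.22, adjusted p = 1.41e-05) and lowered in POU5F1 (-2.05 ± 0.18), COL3A1 (-1.70 ± 0.20) and GABRP cells (-1.23 ± 0.17).

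SEMA3D was at 39.0 and 39.4 CPM in GABRP cells, and the next gate, COL3A1, was at 29.3 and 36.5 CPM. It was raised in GABRP cells (1.36 ± 0.14, adjusted p = 1.15e-06) and lowered in CRABP1 cells at 12.7 and 9.26 CPM (-1.15 ± 0.23, adjusted p = 0.00141), the lone lowered member there. SEMA3E was at 59.8 and 71.9 CPM in CRABP1 cells and 41.9 and 41.0 CPM in GABRP cells, raised in both (1.53 and 1.08). The libraries of SCRG1 cells were again apart for SEMA3E, at 6.97 and 22.0 CPM. SEMA3F, on chromosome 13, was between 10.7 and 41.5 CPM and was lowered in COL3A1 cells (-1.01), while SEMA3B and SEMA3G stayed at or below 2.67 and 0.782 CPM.

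The neuropilins, co-receptors of class 3 semaphorins, did not peak in the same gate. NRP1 was at 106 and 65.1 CPM in THSD7B cells (log2 fold change 1.22 ± 0.12, adjusted p = 4.29e-06) and at 18.5 and 19.3 CPM in GABRP cells (-1.01 ± 0.09, adjusted p = 3.46e-07). NRP2 was at 57.8 and 49.3 CPM in SCRG1 cells (1.69 ± 0.19, adjusted p = 2.84e-05) and was also raised in COL3A1 cells (1.23 ± 0.12), and it was at 5.59 and 5.69 CPM in POU5F1 cells (-2.08 ± 0.15). THSD7B cells therefore had SEMA3C and NRP1 raised together, and SCRG1 cells SEMA3C and NRP2.

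Among the plexins, the receptors that transmit semaphorin binding into the cell, PLXNA2 marked GABRP cells. It lies on chromosome 9 from 134584760 to 134800471 and was at 168 and 138 CPM there, above all other sums, with 57.6 and 77.0 CPM in THSD7B cells next and 16.4 and 14.7 CPM in POU5F1 cells. Its log2 fold change was 2.55 ± 0.10 in GABRP cells (adjusted p = 9.75e-11), and it was lowered in POU5F1 (-1.54), PAX6 (-1.26) and SCRG1 cells (-1.22). Thinned to 9800 UMIs, 67.3% and 60.7% of GABRP cells held a PLXNA2 UMI, against 10.1% and 11.6% of POU5F1 cells. Empty droplets held 29.9 and 18.8 CPM of PLXNA2, above POU5F1 cells and above PAX6 cells at 21.3 and 15.5 CPM. PLXNA4 was at 18.4 and 30.7 CPM in SCRG1 cells and 19.9 and 23.2 CPM in COL3A1 cells, raised in both (1.41 ± 0.25, adjusted p = 0.00157, and 1.37 ± 0.14, adjusted p = 2.26e-06). In PAX6 cells it was at 4.82 and 5.91 CPM (-1.07 ± 0.18, adjusted p = 0.000366). Without the cells that passed several gates its log2 fold change in PAX6 cells was -0.84 (adjusted p = 0.0141), short of the size asked for. SCRG1 cells, where PLXNA4 was raised, were not among the other gates in that setting. PLXNA1, PLXNB1 and PLXNB2 varied less. PLXNA1 was between 14.0 and 25.4 CPM, PLXNB1 between 21.3 and 36.9 CPM and PLXNB2 between 54.3 and 97.9 CPM over all sums, where empty droplets held 94.5 and 97.3 CPM of PLXNB2. PLXND1, the SEMA3E receptor of vessels, was called raised in SCRG1 cells at 3.98 and 5.33 CPM (1.71), and its mean there was 5.15 times that of GABRP cells, the lowest gate.

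Of the membrane-bound semaphorins, SEMA6B and SEMA5A marked THSD7B cells. SEMA6B was at 13.0 and 12.9 CPM there and at most 4.21 CPM in any other sum (log2 fold change 2.83 ± 0.24, adjusted p = 8.98e-07). Thinned to 9800 UMIs, 13.1% and 16.1% of THSD7B cells held a SEMA6B UMI, against 0.701% and 0.652% of GABRP cells. SEMA5A was at 260 and 214 CPM in THSD7B cells, followed by GABRP cells at 113 and 100 CPM, and it was lowest in SCRG1 cells at 49.8 and 40.7 CPM. SEMA5A had a log2 fold change of 1.56 ± 0.08 in THSD7B cells (adjusted p = 2.14e-09) and -1.16 ± 0.12 in SCRG1 cells (adjusted p = 8.22e-06). Its relative SEMA5B had another pattern: it was at 31.9 and 30.3 CPM in CRABP1 cells and 19.7 and 23.6 CPM in POU5F1 cells, raised in both (1.96 ± 0.15, adjusted p = 1.03e-07, and 1.45 ± 0.13, adjusted p = 5.11e-07). SEMA5B was lowered in COL3A1 cells at 3.92 and 4.10 CPM (-1.28) and in GABRP cells at 3.31 and 3.28 CPM (-1.48). SEMA6D was raised in GABRP cells at 35.9 and 30.1 CPM (1.56 ± 0.18, adjusted p = 3.59e-06) and lowered in POU5F1 cells at 6.39 and 3.96 CPM (-1.79 ± 0.24), but its THSD7B libraries were at 10.9 and 45.2 CPM, so that GABRP cells were not above all other sums.

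SEMA6A, which reached 133 and 113 CPM in THSD7B cells, was not called in any gate, and PAX6 cells overlapped it at 111 and 115 CPM. SEMA4D, the ligand of PLXNB1, was lowered in COL3A1 cells at 18.4 and 16.5 CPM (-1.04) and was highest in POU5F1 cells at 50.2 and 51.6 CPM. SEMA4A was raised in GABRP cells at 7.88 and 7.51 CPM (1.43) and SEMA4G in COL3A1 cells at 3.52 and 4.50 CPM (1.03). SEMA6C was raised in CRABP1 cells at 5.79 and 5.47 CPM (1.45) and COL3A1 cells at 4.56 and 3.56 CPM (1.13). SEMA4B, SEMA4C, SEMA4F and SEMA7A had no call in any gate, and no sum of theirs was above 25.3 CPM.

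A direct test of 2 pairs of gates was added after the values had been seen. Most SCRG1 cells also passed the CRABP1 gate. Of the 65 members tested, 13 (3.64% of all genes) were lower in SCRG1 than in CRABP1 cells and 1 was higher (2.13%), PLXND1. The lower ones included SEMA3E (log2 difference -2.24 ± 0.32), SEMA5B (-1.95 ± 0.31), EFNB3 (-1.89 ± 0.31), EPHB2 (-1.75 ± 0.24), EPHA4 (-1.73 ± 0.24) and UNC5D (-1.64 ± 0.16). The SCRG1 libraries were apart for SEMA3E (6.97 and 22.0 CPM), EFNB3 (2.99 and 8.66 CPM) and EPHA4 (36.9 and 106 CPM), with both below the CRABP1 sums. ROBO3 was also among the 13, but its 0.498 and 0.0 CPM in SCRG1 cells rest on 1 UMI in all, so no size is given for that difference. THSD7B and PAX6 cells, which share a high ROBO2, differed in 9 members. The 7 higher in THSD7B cells (4.54% of all genes) were SEMA6B (3.24 ± 0.28), SEMA3C (2.64 ± 0.23), PLXNA2 (1.82), SEMA6D (1.69), UNC5C (1.36), SEMA5A (1.30) and EPHB2 (1.10), and the 2 lower (0.993%) were SEMA3A (-2.18 ± 0.30, adjusted p = 0.000153) and EPHA6 (-1.85 ± 0.24, adjusted p = 0.000101). For SEMA6D library 2 sets this value: THSD7B cells were at 10.9 and 45.2 CPM and PAX6 cells at 8.36 and 8.58 CPM. The higher UNC5C sum did not come with a larger share of cells. After thinning, 26.2% and 29.0% of THSD7B cells held a UNC5C UMI, against 32.1% and 32.1% of PAX6 cells. The thinned shares of SEMA6B, SEMA3C, PLXNA2, SEMA6D and SEMA5A were higher in THSD7B cells in both libraries, and none is given for EPHB2. These shares were not tested. Of the 61 and 62 THSD7B cells, 17 and 17 also passed the GABRP gate, where PLXNA2, SEMA6D and UNC5C were raised. The amnion or trophoblast list was split between THSD7B and PAX6 cells. S100A6 was at 964 and 644 CPM in THSD7B cells against 247 and 178 CPM in PAX6 cells, with 1109 and 1113 CPM in empty droplets. HAND1 and VTCN1 were also higher in THSD7B cells. TFAP2A, GATA3 and GATA2 were lower there, TFAP2A at 289 and 289 CPM against 334 and 308 CPM, and TAC3 differed by library. The part of the cells passing both the THSD7B and GABRP gates in the differences was not tested.

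A list of 40 other genes of the pathway, co-receptors, other guidance cues and the machinery that receptors act on, was read in the same fit. In CRABP1 cells 8 of the 40 were raised (6.72% of all 17624 genes tested) and 1 lowered (2.41%), with a median log2 fold change of 0.30 where that of all genes was 0.01. In GABRP cells 2 were raised (8.70%) and 12 lowered (7.36%), with a median of -0.50 where that of all genes was 0.03. Among the 8 raised in CRABP1 cells were the netrin antagonist DRAXIN (26.4 and 20.0 CPM, 1.99 ± 0.13), the repulsive cue RGMA (63.2 and 58.3 CPM, 1.32 ± 0.10) and the UNC5 ligand FLRT2 (136 and 112 CPM, 2.35 ± 0.13). FLRT2 was also raised in COL3A1 cells (197 and 160 CPM, 3.18 ± 0.12), where 2 genes of the list were raised (8.34%) and 8 lowered (4.15%), beside UNC5C and UNC5B. In THSD7B cells 7 were raised (3.74%) and 0 lowered (0.352%), among them the axonal adhesion genes CNTN2 (22.8 and 11.9 CPM, 5.54 ± 0.39) and DSCAML1 (71.1 and 63.1 CPM, 4.93 ± 0.19). In PAX6 cells 3 were raised (2.40%) and 2 lowered (3.78%), led by DSCAM, a netrin receptor (20.3 and 15.2 CPM, 3.46 ± 0.23). POU5F1 cells had 5 raised (5.61%) and 6 lowered (5.66%). Among the raised were L1CAM (18.8 and 17.9 CPM, 1.70 ± 0.12) and, as in CRABP1 cells, RGMA (58.5 and 64.0 CPM, 1.44 ± 0.08). SCRG1 cells had 2 raised (2.86%) and 2 lowered (2.37%), which with so few genes is little above the share of all genes. The markers named above for each gate move with these calls, and how much of a difference in a sum comes from more cells with the RNA or from more RNA per cell was not tested beyond the shares given.

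In pESCs, before any blastoid was formed, 45 of 66 members (68.2%) had a mean of at least 1 FPKM (fragments scaled by transcript length and by the total mapped, summed over the transcripts of a symbol), where 39.2% of all 29886 symbols did, and 15 had at least 10 FPKM. All 66 members are protein-coding, while the 29886 symbols were not limited to such genes, so the shares have unlike bases. FPKM allow levels of different genes to be compared, and bulk values cannot tell fewer cells with the RNA from less RNA per cell. PLXNB2 was the highest, at 66.7, 75.0 and 77.1 FPKM in IVFP25, PA_4P7 and PAP25, for a mean level of 72.9 ± 5.48 FPKM over the 3 libraries (SD). SEMA4D (32.4 ± 4.95 FPKM) and SEMA4C (31.3 ± 1.21 FPKM), which act on plexin-B receptors, came next and overlapped each other. EPHB4 (23.8 ± 2.29), PLXNA1 (22.2 ± 2.95), EFNA2 (22.0 ± 0.591) and PLXNB1 (18.4 ± 2.53) followed. Over the libraries the first 3 of these overlapped, while all values of PLXNB1 were below those of EFNA2. EFNB2 (17.3 ± 5.88), SEMA3F (16.0 ± 5.20) and ROBO1 (14.7 ± 5.10 FPKM) made up the rest of the 10 highest members and overlapped. DCC was at 0.0224, 0.0676 and 0.521 FPKM, NEO1 at 8.23, 9.69 and 13.2 FPKM, and NTN1 at 4.23, 6.76 and 12.3 FPKM.

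**Figure D4:**
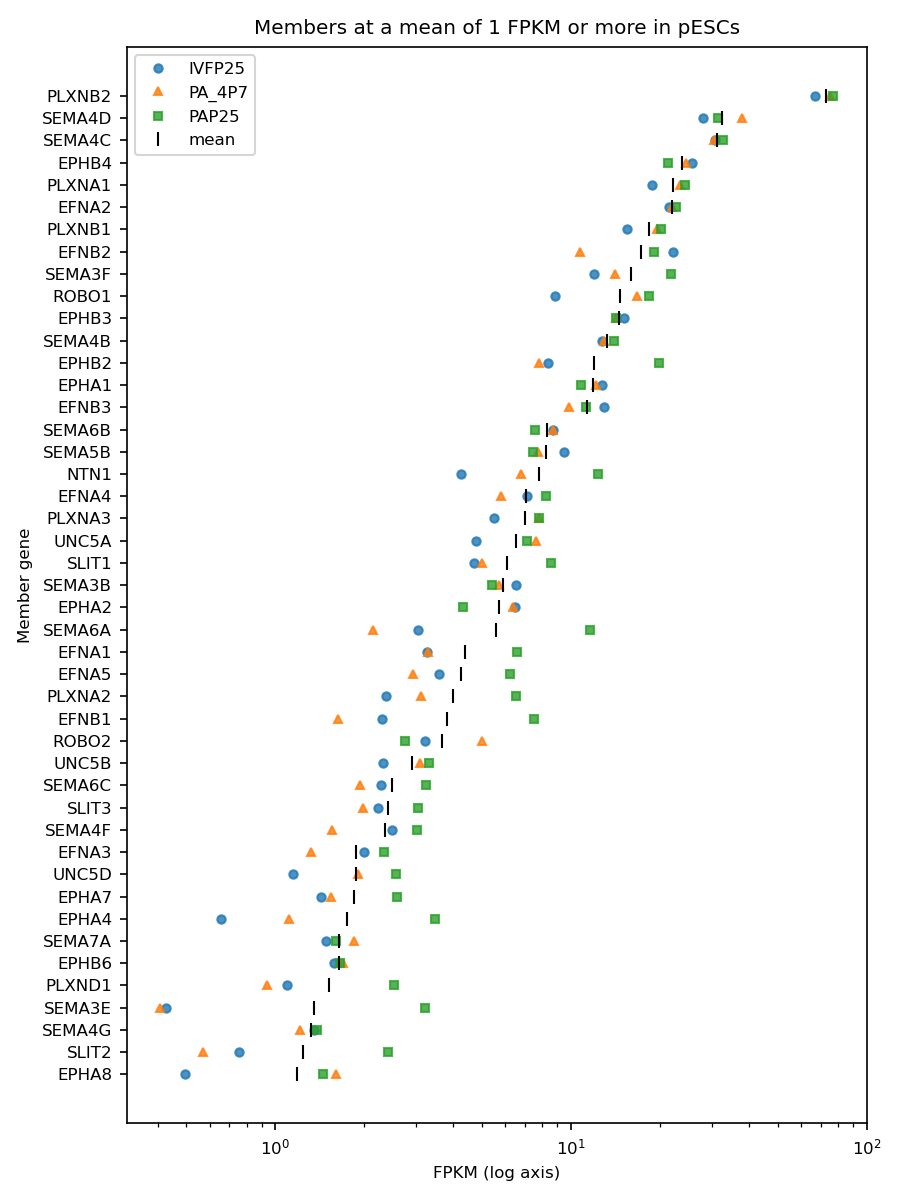
FPKM (log axis) of the 45 members with a mean of at least 1 FPKM in pESCs, with a symbol for each of the 3 libraries and a tick for the mean. PLXNB2 lies highest with a mean of 72.9 FPKM, and the squares of PAP25 lie to the right for 30 of the 45 members.

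The pESC libraries did not agree for several members. By their names they differ in origin and passage, which cannot be told apart here from other differences between the cultures. Of the 45 members at 1 FPKM or more, 30 (66.7%) were highest in PAP25, where 32.5% of all 11720 symbols at that level were. In 13 members PAP25 was the highest library and more than 2 times the lowest (28.9% of the 45), as were 564 of the 11720 symbols (4.81%). Among the 45, the 3 largest ratios between libraries were those of SEMA3E (0.426, 0.408 and 3.21 FPKM), SEMA6A (3.03, 2.13 and 11.6 FPKM) and EPHA4 (0.656, 1.11 and 3.46 FPKM). Some members with a mean under 1 FPKM had larger ratios, SEMA6D (0.302, 0.0867 and 2.29 FPKM) and ROBO3 (0.160, 0.198 and 2.27 FPKM) toward PAP25 and SEMA5A (1.07, 1.62 and 0.167 FPKM) away from it. NRP1 moved the same way, at 0.447, 0.921 and 6.17 FPKM, and NRP2 the other way, at 8.66, 3.24 and 0.872 FPKM. With PAP25 left out, 43 members had at least 1 FPKM. Several members that marked a gate in blastoids were low in pESCs: SEMA3A had 0.00503, 0.0 and 0.0760 FPKM, EPHA5 0.0, 0.0 and 0.0599 FPKM, EPHA6 0.0, 0.0528 and 0.0118 FPKM and UNC5C 0.233, 0.288 and 1.46 FPKM. A single library, PAP25 or for EPHA6 PA_4P7, holds most of each, and UNC5C passed 1 FPKM in PAP25. SEMA5B (8.23 ± 1.09 FPKM) and NTN1, both raised in the POU5F1 cells of blastoids, and SEMA6B (8.32 ± 0.649 FPKM) were above that level. ROBO4 was listed at 0 in all 3 libraries. The assays differ in unit and protocol, so no test was made between them.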

How the data were processed

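The deposited blastoid files hold raw counts of UMIs for all barcodes, which the authors made with Cell Ranger 7.1.0 on susScr11 (whether intron reads counted is not given in the sources used here, so CPM of different genes are not compared), and the deposited FPKM values were made by the authors with Trim Galore 0.6.4, HISAT2 2.2.1 and StringTie 2.2.1 on susScr11. The paper and the labels name different library kits and sequencers. Cells were called by the order-of-magnitude rule, with a threshold of 0.1 times the UMIs at the top 1% of the expected cells. Counts were summed per library and gate and tested with edgeR 4.0.16 (filterByExpr, TMM, quasi-likelihood test, gate as the term), after the same steps had been tested on simulated counts. The libraries are the replicates, and p-values measure their spread, which may be technical. All sums of 1 library share its preparation: their deviations from the gate means correlated at 0.00568 to 0.188 over 21 pairs of gates. The fold of a gene is over the mean of the log2 levels of the other gates, and SE is the fold divided by the root of F. Named members were, per gate, the 5 most raised and 3 most lowered of those called alike in both libraries at 10 CPM or more, and in pESCs the 10 highest and the 3 with the largest ratio between libraries among those at 1 FPKM or more. Other members were named by family. Members, gates and lists were chosen with earlier results of these data known. Doublets, of which Scrublet in scanpy 1.11.5 marked 1 and 0 cells, were removed only in an alternative (the 434 and 535 highest scores, at 0.8% per 1000 cells). Shares of cells were computed after thinning each cell to 9800 UMIs, and no cell was shallower. All 66 members have a RefSeq locus on susScr11, and 95.5% of the 81391 transcripts of the FPKM table were found in that annotation. All 3 pESC columns were taken as replicates of pESCs, although IVFP25 carries a name that points to in vitro fertilization and the paper describes parthenogenetic blastocysts. By its name PA_4P7 is of another passage than IVFP25 and PAP25, so the SD over pESC libraries also holds these differences. The depth of the pESC libraries is unknown.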

Additional observations from a re-analysis of the deposited data

How the results depend on the processing

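Settings tried were DESeq2 size factors, the DESeq2 test, no filter on low counts, a replicate block, stricter gates, a mitochondrial filter, and removal of doublets or of cells passing several gates. Of 140 alternative counts of members, 129 stayed within 1.5 times of the reported count. In 468 alternative log2 fold changes of named members none changed direction, and none of those with a test had an adjusted p above 0.05. Named members were chosen for the same direction in both libraries, so the values from leaving out a library could not change direction. They were also the largest of the members already called, and the alternatives use largely the same cells. A loss of the adjusted p was therefore unlikely from the start. Of the 468 values 11, all from leaving out a library, moved by more than the spread. That spread was the SD of the 2 values from single libraries, and the main value lies near their middle. The rule could therefore hardly mark a value, and its count does not show how the results depend on a library. The sums of 1 library share a preparation, and with the library as a replicate block 61 members differed among gates and no other count of members moved, so that for example 17 members were raised in CRABP1 cells. A gate at 4 times the empty level gave 5 raised members in PAX6 cells. A gate at 5 UMIs gave 5 raised members in PAX6 cells and 2, 12 and 0 lowered members in THSD7B, SCRG1 and CRABP1 cells. Without cells passing several gates, 2, 15 and 2 members were lowered in THSD7B, COL3A1 and CRABP1 cells. SCRG1 cells were then too few to be fitted, so the mean of the other gates left them out. Without doublets 9 members were lowered in SCRG1 cells, and 7 were raised and 5 lowered in PAX6 cells. The shares of all genes called in these settings are not given, so a move of the members alone cannot be told from one of all genes. The cause was not tested. Leaving out a blastoid library leaves no residual degrees of freedom, so these are values with no test. For pESCs, 43 to 47 members had at least 1 FPKM when a library was left out. THSD7B and SCRG1 sums hold 1500451 to 2012110 UMIs, so members under 1 CPM there rest on a few UMIs. Empty droplets hold 1639823 and 2344239 UMIs, so their levels of a few CPM also rest on few UMIs.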

Other observations

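Cells that passed no gate, 3478 in library 1 and 4055 in library 2, are in no comparison above. They held ligands and receptors of several families at levels within the range of the gates, and 0 members were higher there than in every gate in both libraries. The same count over all genes is not given, so this is not read as a trait of the members. SEMA3D was at 36.7 and 35.3 CPM in these cells and SEMA3E at 43.9 and 42.9 CPM, both near the level of GABRP cells. EPHA6 was at 56.0 and 55.3 CPM, between PAX6 and CRABP1 cells. EFNA5 was at 699 and 668 CPM and EFNA1 at 154 and 135 CPM, the latter below the 207 and 165 CPM of empty droplets. ROBO3 was at 1.09 and 2.12 CPM, below the 2.44 and 3.41 CPM of empty droplets. SEMA6B was at 1.15 and 1.64 CPM, with 0.610 and 1.71 CPM in empty droplets. These levels of empty droplets rest on a few UMIs.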
